A study of Homo sapiens with 12 samples.

Results

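Mucins are large glycoproteins of the intestinal surface, and 41 genes that encode them, build their sugar chains or mark the goblet cells that secrete them were followed through BRG1 knockdown in human colorectal cancer cells. They were 12 mucins, 15 polypeptide GalNAc transferases, 7 enzymes that extend or cap the sugar chains, 3 trefoil factors and 4 goblet cell factors. C1GALT1C1, a chaperone gene, is counted with the enzymes. They were chosen by name but with earlier results of these data known, so shares of them called are not those of a blind choice. Each was read from the table row annotated to its symbol. A row was found for 38 of the 41, among 17687 named genes. MUC4, MUC20 and GALNT4 had no row under their symbols, so their expression is not analysed here.

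The RNA came from DLD1 and HCT 116, established lines of human colorectal cancer. Cells of each line carried either siControl, a control siRNA, or siBRG1, which targets BRG1, and every one of the 4 combinations was measured on 3 single-colour arrays. All groups had therefore received an siRNA, and none was an untreated culture. BRG1 is the ATPase of SWI/SNF chromatin remodelling complexes encoded by SMARCA4, and its knockdown in both lines is the question of the study. The sources used here name neither the siRNA sequences nor how long the cells were treated. They also leave out whether replicate arrays had cultures of their own, so a p-value reflects array-to-array spread that may be purely technical.

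Mucin-type O-glycosylation starts in the Golgi, where a GALNT enzyme joins N-acetylgalactosamine to a serine or threonine of the mucin. C1GALT1, which needs the chaperone C1GALT1C1 (COSMC), then builds core 1, B3GNT6 builds core 3, and GCNT1 and GCNT3 add the branches of core 2 and core 4. ST6GALNAC1 instead caps the first sugar with sialic acid, which yields the sialyl-Tn antigen known from colorectal tumours. In the colon, goblet cells secrete the gel-forming mucin MUC2 together with TFF3, CLCA1 and FCGBP, under the transcription factor SPDEF and with the help of AGR2, a disulfide isomerase of the endoplasmic reticulum. Membrane-bound mucins such as MUC1, MUC3A, MUC12, MUC13 and MUC17 line the cell surface itself.

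Upstream sequence is shown for 4 members: GALNT12 and GCNT3, which had the largest falls in HCT 116, MUC13, which had the largest change in DLD1, and AGR2, which differed most between the lines. Each window is the 250 bases before the annotated start, 5′ to 3′ on the gene's strand, from RefSeq on GRCh38.p14. GALNT12 lies at chr9:98807420-98807669 (plus strand), GCNT3 at chr15:59611533-59611782 (plus), MUC13 at chr3:124934752-124935001 (minus) and AGR2 at chr7:16805000-16805249 (minus). Capitals mark matches to the GC box GGGCGG, the AP-1 element TGANTCA and the TATA element TATAAA, each searched on both strands.
GALNT12 upstream window: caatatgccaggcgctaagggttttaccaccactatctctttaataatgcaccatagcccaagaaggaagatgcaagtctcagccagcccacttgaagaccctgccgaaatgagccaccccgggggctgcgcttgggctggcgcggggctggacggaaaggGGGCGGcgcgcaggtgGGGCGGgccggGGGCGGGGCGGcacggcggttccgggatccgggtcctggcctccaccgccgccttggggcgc
GCNT3 upstream window: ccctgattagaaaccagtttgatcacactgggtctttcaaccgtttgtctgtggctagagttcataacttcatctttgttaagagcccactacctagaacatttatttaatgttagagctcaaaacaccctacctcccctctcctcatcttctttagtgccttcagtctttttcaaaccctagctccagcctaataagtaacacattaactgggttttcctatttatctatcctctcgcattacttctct
MUC13 upstream window: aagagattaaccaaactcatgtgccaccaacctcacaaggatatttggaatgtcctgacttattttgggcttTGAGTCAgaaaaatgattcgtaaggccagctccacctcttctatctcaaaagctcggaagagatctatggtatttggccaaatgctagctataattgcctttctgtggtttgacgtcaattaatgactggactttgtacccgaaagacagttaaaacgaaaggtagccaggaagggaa
AGR2 upstream window: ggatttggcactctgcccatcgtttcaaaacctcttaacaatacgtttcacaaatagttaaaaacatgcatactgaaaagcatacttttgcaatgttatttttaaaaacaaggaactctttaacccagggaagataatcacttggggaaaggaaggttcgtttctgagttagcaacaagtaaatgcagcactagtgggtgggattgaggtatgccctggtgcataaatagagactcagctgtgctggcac

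The GALNT12 window is rich in G and C (67.2%), holds 21 CpG dinucleotides and has 4 GC box matches, of which the last pair overlap by their edge. The other 3 windows are poorer in G and C, at 40.4% for GCNT3, 41.6% for MUC13 and 40.4% for AGR2, with 2, 5 and 3 CpG. MUC13 has 1 AP-1 match, whose first base lies 178 bases before the start, and GCNT3 and AGR2 have no match to any of the 3. Windows were found for 27 of the 41 members (26 of the 38 measured, and MUC4), 36 windows in all because some genes have several starts. A GC box stood in 55.6% of the 36 and in 42.6% of 35116 windows of all genes. For the AP-1 element the shares were 11.1% and 6.57%, and for the TATA element 8.33% and 10.7%. These are matches of letters and say nothing of whether a factor binds there.

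The 12 arrays had log2 medians of 6.36 to 6.50, and arrays of a group correlated at 0.988 to 0.994 over all features. SMARCA4, the siRNA target, fell in both lines: the DLD1 change was −3.80 (limma adjusted p = 4.56e-07) and that of HCT 116 was −3.22 (adjusted p = 1.14e-06). All 7 epithelial markers lay above every array median on all 12 arrays. Of 14 fibroblast, leukocyte and endothelial markers, 9 lay below every array median throughout. In bulk RNA, fewer cells that express a gene and less of its RNA per cell cannot be told apart.

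Most goblet cell markers had low values in both lines. Of 9 goblet cell markers, 7 stayed below every array median on all 12 arrays, MUC2, SPDEF, CLCA1 and FCGBP among them. The table has no detection calls, so such values cannot be told from background. Over the 38 members, 14 stayed below every array median throughout, 10 stayed above and 14 lay on both sides or between the medians. The first group held all 4 gel-forming mucins measured (MUC2, MUC5AC, MUC5B and MUC6). The second was made up of GALNT1, GALNT2, GALNT3, GALNT5, GALNT7, GALNT10, GALNT12, GALNT18, C1GALT1 and B3GNT3, all of them enzymes.

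**Figure D1:**
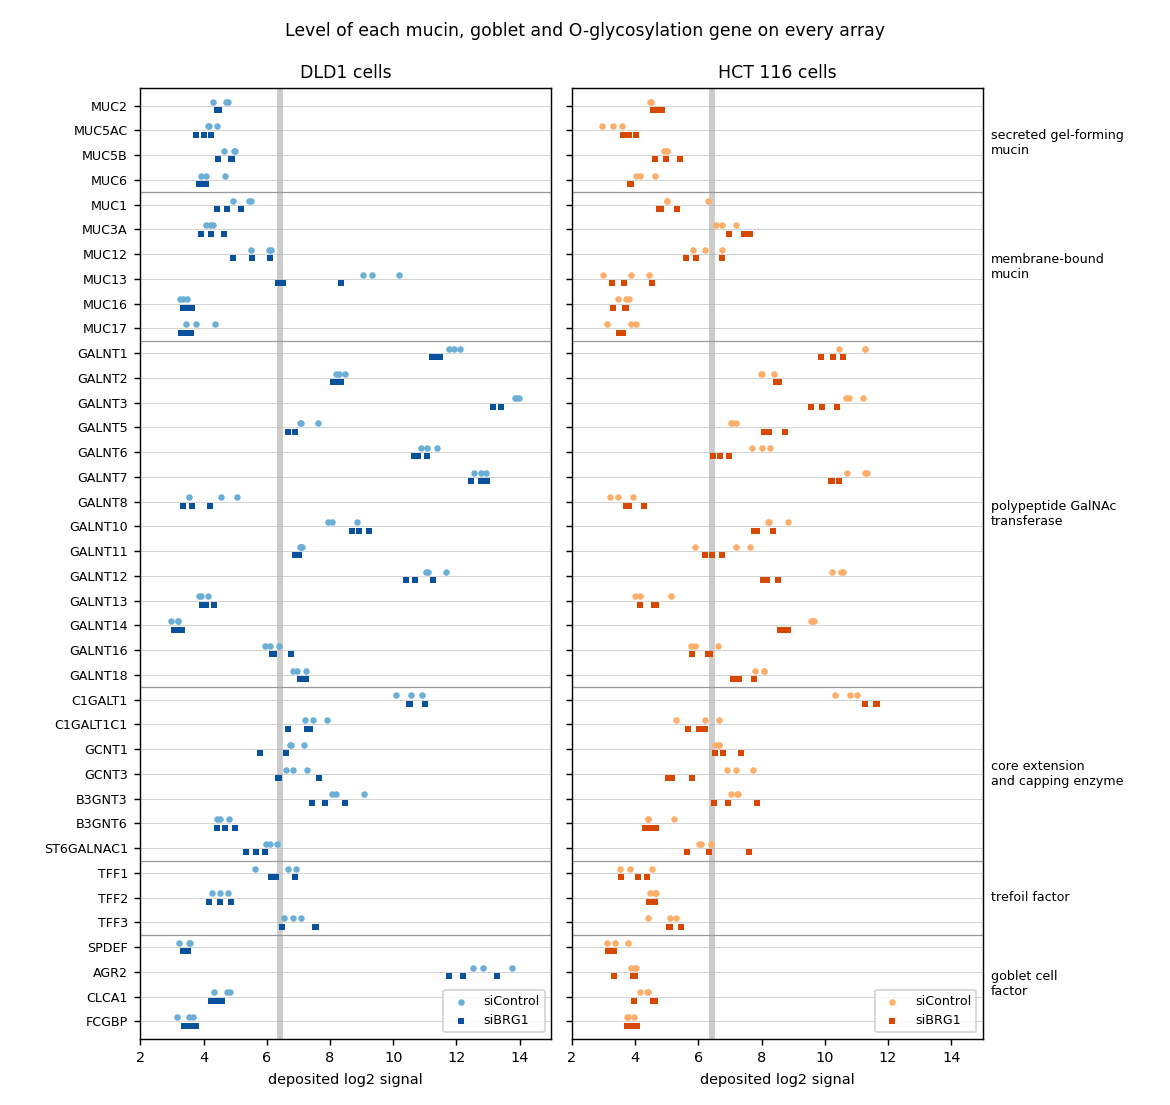
Deposited log2 signal (horizontal axis) of the 38 measured genes, grouped by role, in DLD1 (left) and HCT 116 (right). Each point is 1 array, circles siControl and squares siBRG1, and the grey band spans the 12 array medians (6.36 to 6.50). AGR2 lies between 11.76 and 13.75 in DLD1 and between 3.34 and 4.03 in HCT 116, and GALNT14 shows the opposite pattern.

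The lines differed strongly in these genes before BRG1 was lowered. Between the control siRNA groups, 3 members were higher and 12 lower in HCT 116 than in DLD1 (limma, adjusted p under 0.05), so 15 of 38 (39.5%) passed. Over all genes the same comparison called 27.6%, 13.6% higher and 14% lower in HCT 116.

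AGR2 (Entrez gene 10551) showed the widest gap. Its siControl arrays read 13.75, 12.83 and 12.52 in DLD1 and 3.99, 4.03 and 3.86 in HCT 116. The difference of −9.07 (SE 0.36, limma adjusted p = 4.01e-11) is a gap between a bright gene in DLD1 and values near the bottom of the scale in HCT 116. Among the trefoil factors, small secreted peptides of the mucus layer, TFF3 and TFF1 were lower in HCT 116, with differences of −1.89 (SE 0.29) and −2.45 (SE 0.35) and limma adjusted p = 1.39e-04 and 5.98e-05. TFF2 differed by 0.09 (95% interval −0.35 to 0.52) and was below every array median in both lines.

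Among the mucins, MUC13, a membrane-bound mucin of the gut epithelium, was bright in DLD1 and low in HCT 116. Its DLD1 siControl arrays read 10.19, 9.05 and 9.31 and its HCT 116 siControl arrays 3.88, 2.97 and 4.44, a difference of −5.75 (SE 0.50, limma adjusted p = 3.94e-07). MUC3A, another membrane-bound mucin, went the other way. It stood at 4.19 ± 0.12 in DLD1 and 6.83 ± 0.32 in HCT 116 (log2 mean ± SD, n = 3 each), a difference of 2.65 (SE 0.24, limma adjusted p = 4.56e-07). MUC5AC was lower in HCT 116 (−0.96, SE 0.21, limma adjusted p = 0.00216), with every array of both groups below the array medians. MUC1, MUC2, MUC5B, MUC6, MUC12, MUC16 and MUC17 did not pass, and their differences ran from −0.19 to 0.35.

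The transferases that start O-glycosylation differed in both directions, with 2 higher and 5 lower in HCT 116. GALNT14, a transferase linked to the glycosylation of death receptors, was near the bottom of the scale in DLD1 (3.12 ± 0.13) and bright in HCT 116 (9.61 ± 0.06; n = 3 each), a difference of 6.49 (SE 0.16, limma adjusted p = 4.22e-13). GALNT18 was also higher in HCT 116, by 0.97 (SE 0.20). GALNT6 (−3.11, SE 0.21), its close relative GALNT3 (−3.02, SE 0.22), GALNT7 (−1.65, SE 0.21), the widely expressed GALNT1 (−0.93, SE 0.24) and GALNT12 (−0.82, SE 0.24) were lower there. The GALNT12 difference (limma adjusted p = 0.0193) did not pass without DLD1 siControl replicate 2 (−0.62, adjusted p = 0.0995) or HCT 116 siControl replicate 2 (−0.72, adjusted p = 0.078). The other 7 transferases did not pass.

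Among the genes that act after the first sugar, the chaperone gene C1GALT1C1 (−1.47, SE 0.31, limma adjusted p = 0.00201) and B3GNT3, which extends core 1 (−1.27, SE 0.34, limma adjusted p = 0.0114), were lower in HCT 116. The B3GNT3 difference did not pass without DLD1 siControl replicate 2 (−0.96, limma adjusted p = 0.0638). C1GALT1 itself differed by 0.20 (95% interval −0.32 to 0.72), GCNT3 by 0.37 (−0.34 to 1.09) and ST6GALNAC1 by 0.04 (−0.72 to 0.79), none of which passed.

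**Figure D2:**
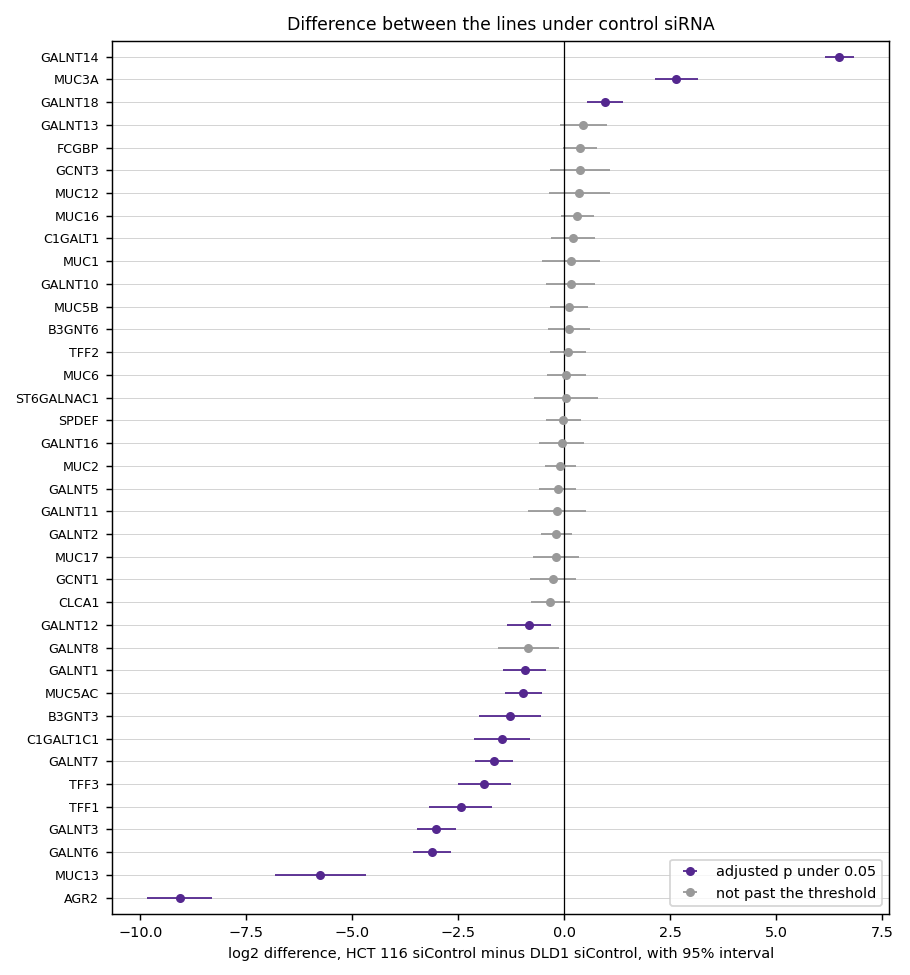
Difference in deposited log2 signal between the control siRNA groups, HCT 116 minus DLD1 (horizontal axis), for the 38 measured genes in order of the difference. Points are limma estimates from 3 arrays a group, bars are 95% intervals, and filled colour marks an adjusted p under 0.05. AGR2 (−9.07) and GALNT14 (6.49) lie at the ends.

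In DLD1, no member passed after siBRG1 over all genes (limma, adjusted p under 0.05), where 35 of all genes did (0.198%, made up of 0.0678% higher and 0.13% lower). At an unadjusted p under 0.05 there were 6 of 38 members, and 10.5% of all genes. Of the 38, 25 had changes below 0 and 13 above. The median change of −0.14 stands beside 0.01 over all genes. In 7 members all siBRG1 arrays lay below all siControl arrays, and in none above. Over all genes these shares were 7.19% below and 8.33% above.

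MUC13 (Entrez gene 56667) had the largest change of a member in DLD1. Its siControl arrays read 10.19, 9.05 and 9.31 and its siBRG1 arrays 8.33, 6.35 and 6.50, so the groups did not overlap. Replicate 1 was the highest in both groups. The change was −2.45 (SE 0.50, 95% interval −3.53 to −1.38), with a limma adjusted p of 0.0801. In DLD1, same-numbered arrays deviate together. With the replicate number as a block in both lines, MUC13 passed (limma adjusted p = 0.0258, against 0.554% of all genes called that way). It was then the only member called in DLD1. It also passed without siBRG1 replicate 1 (−3.09, limma adjusted p = 0.0104), the only 1 of 12 fits with 1 array left out that called it. Of 22 alternatives, 18 left MUC13 uncalled in DLD1 (limma adjusted p up to 0.438).

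In HCT 116, where MUC13 lay between 2.97 and 4.54 on every array, its change was 0.05 (SE 0.50, limma adjusted p = 0.977). The difference between the lines was 2.50 (SE 0.71) and did not pass (limma adjusted p = 0.204, or 0.059 with the block). Without DLD1 siBRG1 replicate 1 it was 3.14 (limma adjusted p = 0.0497). Values that low leave little room for a fall.

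Remaining membrane-bound mucins had small changes in DLD1 that did not pass. MUC1, the mucin most studied in carcinomas, had −0.51 (95% interval −1.20 to 0.18). MUC17 and MUC12 had −0.40 and −0.39, MUC16 had 0.12 and MUC3A 0.08. The 4 gel-forming mucins had changes of −0.24 to −0.12. For MUC2 the siControl arrays read 4.76, 4.31 and 4.70 and the siBRG1 arrays 4.47, 4.42 and 4.48, which overlap below every array median.

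Goblet cell factors in DLD1 gave overlapping arrays. AGR2 read 13.75, 12.83 and 12.52 with siControl and 13.27, 12.19 and 11.76 with siBRG1. Its change was −0.63 (SE 0.36, limma adjusted p = 0.603, or 0.131 with the block), and both groups stayed far above the array medians. TFF3 read 6.56, 7.07 and 6.83 against 7.53, 6.49 and 7.56, a change of 0.37 (95% interval −0.25 to 0.99, limma adjusted p = 0.755). SPDEF read 3.21, 3.58 and 3.53 against 3.51, 3.34 and 3.42, all near the bottom of the scale.

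None of the 14 transferases measured passed in DLD1. GALNT1 (−0.60, SE 0.24), GALNT3 (−0.58, SE 0.22), GALNT5 (−0.50, SE 0.21) and GALNT11 (−0.14, SE 0.32) were the 4 whose siBRG1 arrays all lay below the siControl arrays. GALNT10, a transferase that prefers partly glycosylated peptides, had the highest change, 0.67 (SE 0.27, limma adjusted p = 0.381). Among genes acting after the first sugar, C1GALT1 read 10.55, 10.91 and 10.09 against 10.51, 11.01 and 10.49 (change 0.15, limma adjusted p = 0.914). C1GALT1C1 read 7.21, 7.91 and 7.46 against 7.35, 7.27 and 6.66 (change −0.44, limma adjusted p = 0.714). Both genes overlapped between the groups. ST6GALNAC1, the sialyl-Tn enzyme, read 6.11, 6.32 and 5.98 against 5.35, 5.66 and 5.93, without overlap but with a change (−0.49, SE 0.35) that did not pass (limma adjusted p = 0.717).

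In HCT 116, 7 of the 21 enzyme genes measured (C1GALT1C1 counted with them) passed, and none of the 10 mucins did. By signal level, 0 of the 14 members below every array median passed, 3 of the 14 in the middle class and 4 of the 10 above. The share of all genes called in each class is not given. These counts are therefore not read as a trait of the members. MUC1, MUC2, MUC5AC, MUC5B, MUC6, MUC16 and MUC17 were in the low class. Whether the contrast between enzymes and mucins goes beyond signal level was not tested. Of the 38 members, 1 rose and 6 fell after siBRG1 (limma, adjusted p under 0.05). These 7 are 18.4% of the members, where 6.95% of all genes were called, 2.82% higher and 4.13% lower. All 7 are glycosyltransferase genes: GALNT12, GALNT6, GALNT3, GALNT14, GALNT7 and GCNT3 fell, and GALNT5 rose. At an unadjusted p under 0.05 there were 12 members, beside 20.4% of all genes. In 5 members all siBRG1 arrays lay above all controls and in 8 below, where all genes had 11.9% and 13%. With each array centred on its median, 2 members rose and 6 fell, the added rise being that of C1GALT1, and all genes split into 3.48% higher and 3.19% lower. With both HCT 116 arrays numbered 1 left out, 1 rose and 7 fell, beside 5.6% of all genes called (1.88% higher and 3.73% lower).

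GALNT12 (Entrez gene 79695), a transferase known from the digestive tract, fell most. Its siControl arrays read 10.52, 10.24 and 10.57 and its siBRG1 arrays 8.52, 8.06 and 8.18, a gap far wider than the spread within either group. The change was −2.19 (SE 0.24, limma adjusted p = 1.33e-04), lower in 3 of 3 arrays, and it passed without any 1 of the 12 arrays. In DLD1, GALNT12 read 11.02, 11.67 and 11.09 against 10.67, 11.27 and 10.41, overlapping, with a change of −0.48 (SE 0.24, limma adjusted p = 0.534). HCT 116 minus DLD1, these changes gave −1.71 (SE 0.34, limma adjusted p = 0.0526), just short of the threshold. That difference passed without DLD1 siControl replicate 2 (−1.91, adjusted p = 0.0383), DLD1 siBRG1 replicate 3 (−1.90, adjusted p = 0.0482) or HCT 116 siBRG1 replicate 1 (−1.84, adjusted p = 0.0475).

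GCNT3 (Entrez gene 9245), the branching enzyme of mucin-secreting tissues, fell nearly as far. It read 7.74, 7.19 and 6.91 with siControl and 5.79, 5.18 and 5.06 with siBRG1. The groups were apart, and the change was −1.94 (SE 0.33, limma adjusted p = 0.00309). These siBRG1 values lie below the array medians, where the part of background in them is unknown. In DLD1 the gene read 6.84, 7.27 and 6.61 against 7.63, 6.39 and 6.34, with 1 siBRG1 array above all controls and 2 below them. The difference between the lines was −1.82 (SE 0.47, limma adjusted p = 0.154). GCNT1, its relative expressed in many tissues, had a change of 0.28 in HCT 116 (95% interval −0.26 to 0.82).

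GALNT6 and GALNT3, close relatives within the transferase family, both fell. GALNT6 read 8.02, 7.71 and 8.26 with siControl and 6.45, 6.69 and 6.97 with siBRG1 (change −1.29, SE 0.21, limma adjusted p = 0.00237). GALNT3 read 10.68, 10.78 and 11.20 against 9.58, 10.38 and 9.91 (change −0.93, SE 0.22, limma adjusted p = 0.0173). Neither gene's groups overlapped. The GALNT3 call was lost without siControl replicate 3 (−0.77, limma adjusted p = 0.0811), siBRG1 replicate 1 (−0.74, 0.0624) or siBRG1 replicate 3 (−0.91, 0.0636). It was also lost with both HCT 116 arrays numbered 1 left out (−0.85, limma adjusted p = 0.0511). In DLD1 GALNT6 read 10.88, 11.07 and 11.38 against 10.64, 10.77 and 11.08 (change −0.28, SE 0.21). GALNT3 read 13.88, 13.85 and 13.99 against 13.41, 13.42 and 13.14 (change −0.58, SE 0.22), separated but not past the threshold. The HCT 116 change minus that of DLD1 was −1.01 for GALNT6 (SE 0.30) and −0.35 for GALNT3 (SE 0.30), neither of which passed (limma adjusted p = 0.226 and 0.85).

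GALNT14 and GALNT7 fell by similar amounts. GALNT14 read 9.57, 9.59 and 9.67 with siControl and 8.60, 8.71 and 8.83 with siBRG1, a change of −0.90 with the smallest error of the set (SE 0.16, limma adjusted p = 0.00421). Its DLD1 arrays all lay between 2.97 and 3.31, which leaves little room for a fall there. GALNT7, which acts on peptides that already carry a sugar, read 10.69, 11.28 and 11.33 against 10.24, 10.46 and 10.19 (change −0.81, SE 0.21, limma adjusted p = 0.0319). This was the least stable call. It was lost without siControl replicate 2 (−0.72, limma adjusted p = 0.128), siControl replicate 3 (−0.69, 0.124), siBRG1 replicate 1 (−0.78, 0.0761), siBRG1 replicate 2 (−0.89, 0.0563) or siBRG1 replicate 3 (−0.75, 0.115). In DLD1 GALNT7 read 12.54, 12.92 and 12.78 against 12.46, 12.98 and 12.76, a change of −0.01 (95% interval −0.46 to 0.44).

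**Figure D3:**
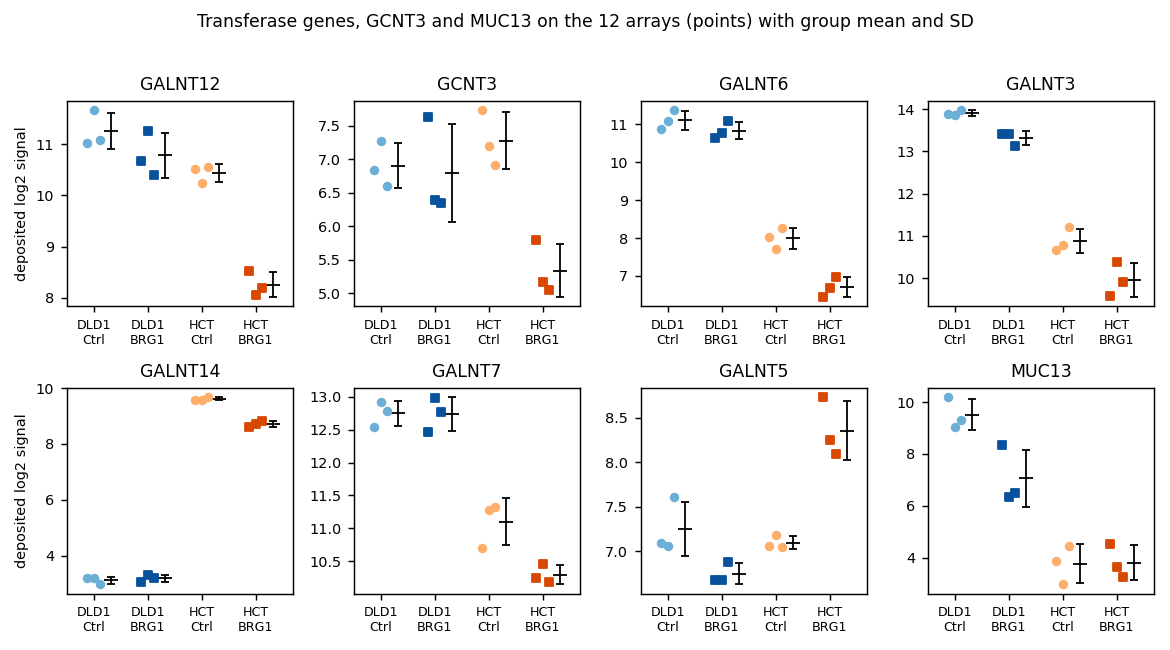
Deposited log2 signal (vertical axis, its range set for each gene) of the 7 genes called in HCT 116 and of MUC13, in the 4 groups: DLD1 and HCT 116 with siControl (Ctrl, circles) or siBRG1 (BRG1, squares). Points are the arrays 1 to 3 from left to right and black marks the group mean ± SD. GALNT12 drops from 10.44 to 8.25 in HCT 116, GALNT5 climbs from 7.10 to 8.36, and MUC13 drops from 9.52 to 7.06 in DLD1.

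GALNT5 (Entrez gene 11227) was the member that rose in HCT 116, and the only 1 of the 38 whose change differed between the lines at an adjusted p under 0.05 (0.334% of all genes did, 0.158% upward and 0.175% downward in HCT 116 relative to DLD1). With the block GALNT12 passed too (limma adjusted p = 0.0149, 0.577% of all genes). At an unadjusted p under 0.05 there were 12 members and 8.99% of all genes. In HCT 116 it read 7.06, 7.18 and 7.05 with siControl and 8.73, 8.25 and 8.09 with siBRG1, a change of 1.26 (SE 0.21, limma adjusted p = 0.00226) that passed without any 1 array. In DLD1 it read 7.09, 7.05 and 7.61 against 6.68, 6.67 and 6.88, so that the siBRG1 arrays lay below all controls (change −0.50, SE 0.21, limma adjusted p = 0.382). The control levels of the lines were alike (7.25 ± 0.31 and 7.10 ± 0.07, n = 3 each). The difference of the changes was 1.76 (SE 0.29, limma adjusted p = 0.0161). It did not pass without DLD1 siControl replicate 3 (1.59, limma adjusted p = 0.0516) or HCT 116 siControl replicate 3 (1.74, 0.0521).

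The other 8 transferases did not pass in HCT 116. GALNT1 (−0.76, SE 0.24, limma adjusted p = 0.0718) and GALNT18 (−0.60, SE 0.20, limma adjusted p = 0.0888) came nearest. GALNT1 passed without siControl replicate 1 (−1.03, limma adjusted p = 0.0127), as did GALNT11 (−0.95, 0.0147, against −0.45 with all arrays), and GALNT18 passed without siBRG1 replicate 3 (−0.80, 0.0433). With only genes above the median level tested or with array weights, GALNT1 (limma adjusted p = 0.0431 and 0.0118) and GALNT18 (0.0486 and 0.0439) passed too. A trended and robust prior also called GALNT1 (limma adjusted p = 0.0482). Of 23 alternatives, 17 left GALNT1 uncalled and 20 left GALNT18 uncalled. Of the 12 arrays, replicate 1 of the HCT 116 control siRNA was the most distant from its group mean over all genes. Over the 14 transferases the median change was −0.52, beside −0.01 for all genes, with 9 changes below 0 and 5 above. GALNT2, which with GALNT1 is made in most tissues, had a change of 0.35 (95% interval −0.02 to 0.72).

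The core 1 enzyme C1GALT1 came near the threshold in HCT 116. It read 10.33, 10.81 and 11.02 with siControl and 11.28, 11.65 and 11.63 with siBRG1. All siBRG1 arrays were higher, by 0.81 (SE 0.24, limma adjusted p = 0.0632). It passed after the arrays were centred (0.87, limma adjusted p = 0.0401) or quantile normalized (0.84, 0.0487). It also passed with only genes above the median level tested, with a trended and robust prior or with array weights (limma adjusted p = 0.0387, 0.0431 and 0.0464). Of 23 alternatives, 17 left C1GALT1 uncalled (limma adjusted p up to 0.185), all 12 fits with 1 array left out among them. Its chaperone C1GALT1C1 read 5.29, 6.66 and 6.22 against 5.69, 6.03 and 6.20, with overlapping groups and a change of −0.09 (95% interval −0.75 to 0.58). B3GNT6, the core 3 enzyme of normal colon, stayed below every array median. ST6GALNAC1 read 6.40, 6.02 and 6.10 against 7.59, 6.34 and 5.65, where 1 siBRG1 array was high and the change of 0.35 had an interval of −0.40 to 1.11.

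Mucin and goblet cell genes themselves gave no call in HCT 116. Among the gel-forming mucins, MUC5AC had 0.53 (SE 0.21, limma adjusted p = 0.144) and MUC6 −0.40 (SE 0.22). Among the membrane-bound ones, MUC1 went from 5.45 ± 0.75 to 4.96 ± 0.32 (n = 3 each) with overlapping arrays, siControl replicate 1 standing high at 6.32. MUC2 read 4.48, 4.51 and 4.51 with siControl and 4.86, 4.67 and 4.58 with siBRG1, a change of 0.21 (SE 0.17, limma adjusted p = 0.567) without overlap. All of these values lie below the array medians. MUC3A, the mucin with the highest control arrays relative to DLD1, read 6.56, 6.75 and 7.19 against 6.96, 7.44 and 7.64, overlapping (change 0.51, limma adjusted p = 0.234). TFF3 read 5.11, 4.41 and 5.29 against 5.12, 5.46 and 5.08 (change 0.29). SPDEF read 3.11, 3.78 and 3.36 against 3.32, 3.15 and 3.35 (change −0.15). AGR2 read 3.99, 4.03 and 3.86 against 3.34, 3.94 and 4.01 (change −0.20). These 3 goblet cell genes overlapped between the groups, and BRG1 siRNA did not bring AGR2 up to its DLD1 level.

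**Figure D4:**
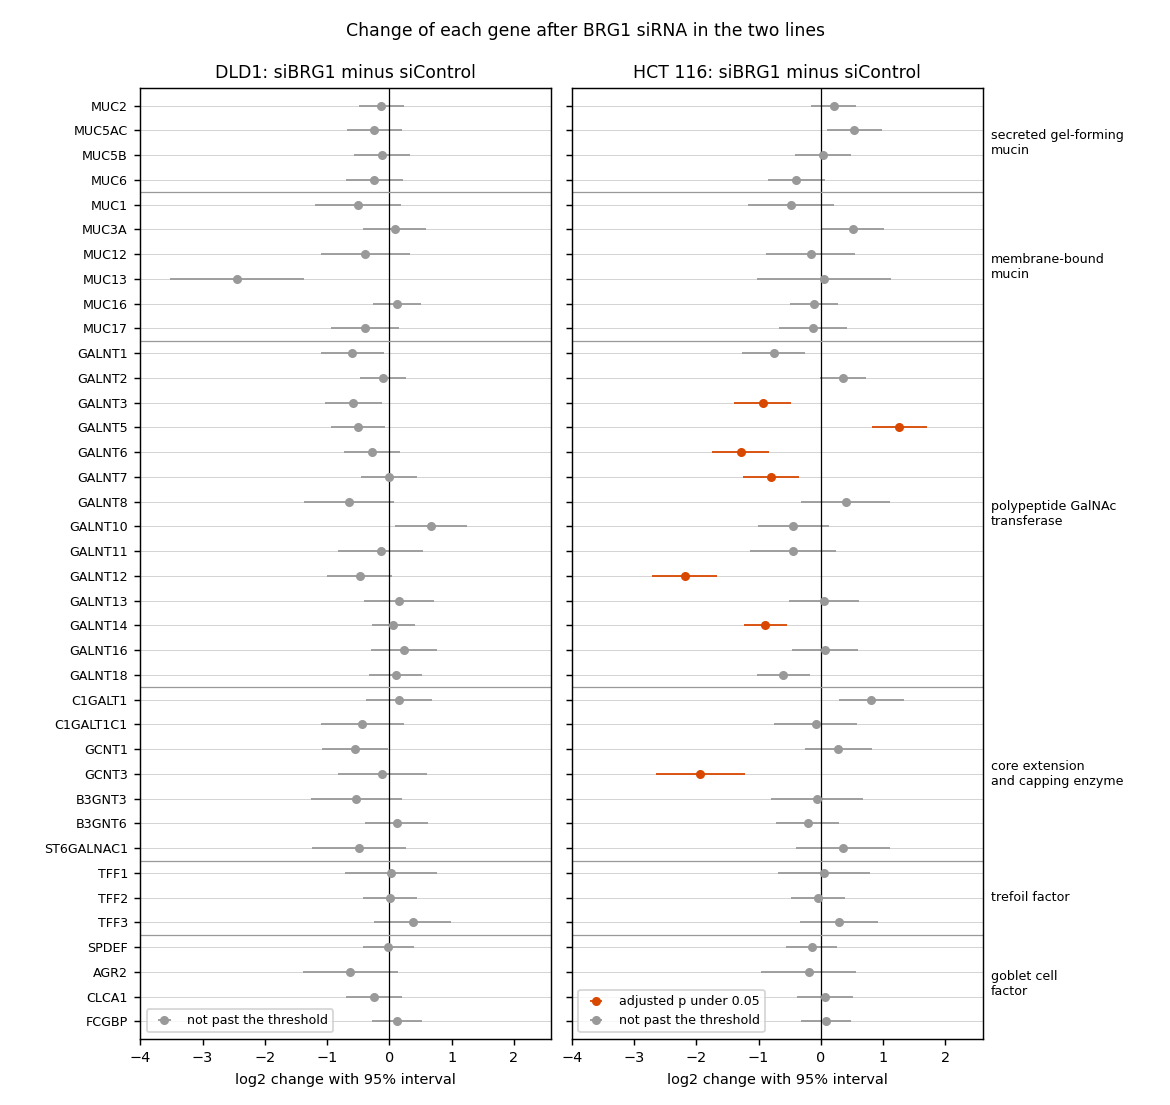
Log2 change after BRG1 siRNA, siBRG1 minus siControl (horizontal axis), of the 38 measured genes in DLD1 (left) and HCT 116 (right). Points are limma estimates from 3 arrays a group, bars are 95% intervals, and colour marks an adjusted p under 0.05. Coloured points stand only on the right, 6 below 0 and GALNT5 above, while the grey MUC13 point at −2.45 lies furthest from 0 on the left.

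Across the 38 members the changes of the lines had little relation. Pearson's r was 0.01 and Spearman's rho 0.10, as a description over genes that share arrays within each line. Changes had the same sign in 22 members, and in 15 both were below 0. The same measures over all genes are not given, so these are not read as a trait of the members. Of the 38, 14 lay below every array median on all 12 arrays, where values cannot be told from background.

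After siBRG1, other genes of the pathway, not among the members, were called about as often as all genes. Of 41 further O-glycan enzymes and sugar transporters measured, none rose and 3 fell in HCT 116, and none passed in DLD1 (median change −0.07 and −0.12). The 3 are 7.32% of the list, beside 6.95% of all genes. ST6GALNAC2, a sialyltransferase of O-glycans, fell by 1.88 (SE 0.29), ST6GAL1, which sialylates mostly N-glycans, by 1.23 (SE 0.19), and the galactosyltransferase gene B4GALT5 by 1.06 (SE 0.20), with limma adjusted p = 0.00125, 0.00146 and 0.0062. The control lines differed in 19 of the 41 (46.3%), 11 higher and 8 lower in HCT 116, beside 27.6% of all genes. Of 9 further mucins and mucin-like genes none passed after siBRG1 in either line.

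Among 17 further goblet cell secretory genes, 1 fell in each line (5.88% of the list). Over all genes 0.198% were called in DLD1 and 6.95% in HCT 116. The kallikrein gene KLK1 fell by 1.20 (SE 0.21, limma adjusted p = 0.0352) in DLD1. Its call was lost without any 1 of the DLD1 siControl arrays, DLD1 siBRG1 replicate 3, HCT 116 siControl replicate 3 or HCT 116 siBRG1 replicates 2 and 3 (adjusted p = 0.0511 to 0.259). LRRC26, an auxiliary subunit of potassium channels, fell by 0.76 (SE 0.19, limma adjusted p = 0.0219) in HCT 116. It was lost without HCT 116 siControl replicates 1 or 2 or siBRG1 replicates 1 or 3 (adjusted p = 0.0585 to 0.098). Both genes lie below the array medians.

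Among 17 regulators of the secretory lineage, 1 passed in HCT 116 (5.88%, beside 6.95% of all genes). This was SOX9, a crypt transcription factor, which fell (−0.95, SE 0.19, limma adjusted p = 0.00727), and none passed in DLD1. There SOX9 had a change of 0.66 (SE 0.19, limma adjusted p = 0.187), with all siBRG1 arrays above the controls. Its changes differed between the lines by −1.61 (SE 0.27, limma adjusted p = 0.0161). That difference did not pass without DLD1 siControl replicate 3 (−1.48, limma adjusted p = 0.055), HCT 116 siControl replicate 2 (−1.53, 0.0627) or HCT 116 siBRG1 replicate 3 (−1.61, 0.0535). Between the control lines 6 of the 17 (35.3%) were lower in HCT 116 and none higher, beside 14% of all genes lower and 13.6% higher. The largest of these differences, picked after its value was seen, was that of FOXA1, a forkhead factor of gut epithelium (−6.67, SE 0.31, limma adjusted p = 2.22e-10). ATOH1, the factor that commits cells to the secretory lineage, had group means of 3.19 to 3.33 in all 4 groups.

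Of the marker lists, 1 leukocyte gene was called after siBRG1. None of 13 absorptive enterocyte, 5 Paneth cell, 6 enteroendocrine, 7 epithelial, 5 fibroblast and 4 endothelial markers passed in either line. Of 5 leukocyte markers, CD68, a lysosomal protein of macrophages, rose in HCT 116 by 1.29 (SE 0.23, limma adjusted p = 0.0036). The mean of the 5 ran from 5.38 to 5.62 in the HCT 116 siControl arrays and from 5.72 to 5.87 in the siBRG1 arrays. That mean includes CD68, so it is no separate result. Of the 5 changes, 3 lay above 0 and 2 below (median 0.17). The 7 epithelial markers were lower on average after siBRG1 in HCT 116. Their mean ran from 13.02 to 13.30 in the siControl arrays and from 12.85 to 13.01 in the siBRG1 arrays, and 6 of the 7 changes lay below 0 (median −0.35). In 3 of them, the keratin genes KRT8 and KRT18 and the claudin gene CLDN4, all siBRG1 arrays were lower, and in KRT19 all were higher. Over all genes 13% lay lower and 11.9% higher without overlap. The part of these shifts in the enzyme results was not tested. PTPRC, the defining leukocyte gene, stayed between 3.36 and 4.72 on all 12 arrays, below every array median. Between the control lines, 6 of the 7 epithelial markers were lower in HCT 116 (median difference of the 7 −0.91). These are 85.7% of the list, beside 27.6% of all genes called. That comparison also called 3 of 13 enterocyte, 1 of 5 Paneth cell and 2 of 5 leukocyte markers.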

How the data were processed

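Biotin-labelled cDNA from the total RNA of 12 samples was hybridised, each to its own single-colour array. Samples were grouped by title. In 4 HCT 116 samples the source name has a different number from the title. The deposited log2 values were made by the authors with RMA (Affymetrix Power Tools), as named per the submitters' processing notes. RMA subtracts background, equalises probe intensities over arrays and summarises probes per feature. Values reach 18.05, above the 16 that a scanner can record on a log2 scale, so some step beyond RMA, unnamed in the labels, sets the scale of the log2 changes given. The genome build is not given in the sources used here.

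Of 21448 features, 17709 had 1 symbol in the platform annotation (updated through Entrez ID to RefSeq), 0 had several and 3739 had none. The row with the highest mean was taken for each of 17687 genes, and no measured member had several rows. Group means of the 12 arrays were fitted with limma 3.58.1 in R 4.3.3 (lmFit, eBayes). Benjamini-Hochberg adjustment covered every gene of a comparison, and an adjusted p under 0.05 was a call. The "95% interval" of a change is limma's. The number of arrays limits the precision.

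The members, lists and rule for named genes were chosen with earlier results of these data known. The rule was to give every array for members called after siBRG1 or between the lines' changes, and for MUC2, TFF3, SPDEF, AGR2, C1GALT1, C1GALT1C1, GCNT3 and ST6GALNAC1. It also named up to 4 called genes of each list. MUC13 and genes named without a call were added after their values were seen.

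Same-numbered siControl and siBRG1 arrays deviated together from their group means in DLD1 (correlations 0.49, 0.46 and 0.29 over genes) and less so in HCT 116 (0.30, 0.15 and 0.03). The numbers were therefore taken to pair the DLD1 arrays only, from the data and not from the labels. The divide is not sharp, as replicate 1 of HCT 116 (0.30) lay as high as replicate 3 of DLD1 (0.29). All replicate numbers are those of the titles, from which 4 HCT 116 source names differ. The block and the fit without HCT 116 arrays numbered 1 rest on them. The block was nevertheless fitted in both lines at once. Blocked values for DLD1 and for the difference between the lines thus also rest on the pairing of HCT 116 arrays. Alternatives were this block, groups fitted alone, quantile normalization, centring, filters on level, the mean of a gene's rows, a trended and robust prior, array weights, an adjusted p under 0.01 and each array left out. A fit without replicate 1 of either HCT 116 group was chosen after seeing the data. On simulated data with 17687 genes, 62% of 50 genes changed by 1 on the log2 scale in HCT 116 were called, and 94% of those changed by 2. As a difference between lines 20% and 76% were called. Of genes changed by 0.5, 4% were called, and 0% as a difference between lines. Changes in DLD1 were not simulated.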

Additional observations from a re-analysis of the deposited data

Results flagged for a closer look

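GALNT5 drew attention because its response differed between the lines by a direct test. The HCT 116 change minus the DLD1 change was 1.76 (limma adjusted p = 0.0161), with all 3 HCT 116 siBRG1 arrays above their controls and all 3 DLD1 siBRG1 arrays below theirs. SOX9, a regulator of the secretory lineage, differed in the same test and the other direction, by −1.61 (limma adjusted p = 0.0161), with all 3 HCT 116 siBRG1 arrays below their controls and all 3 DLD1 siBRG1 arrays above theirs. Groups of 3 arrays are too small for a test of outlying arrays, so none was made.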

How the results depend on the processing

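The number of members called in HCT 116 stayed within 1.5 times of 7 under every alternative, from 5 to 10, and from 5 to 9 with 1 array left out. The replicate block, whose numbers are not shown to pair the HCT 116 arrays, gave 9 there (12% of all genes), adding GALNT1 (adjusted p = 0.015) and C1GALT1 (0.0115). GALNT12, GCNT3, GALNT6, GALNT14 and GALNT5 passed in HCT 116 under every alternative that tested them (GCNT3 and GALNT14 did not enter the filter at the median level). GALNT3 and GALNT7 did not pass with HCT 116 fitted alone (adjusted p = 0.0636 and 0.0677) or at 0.01. In DLD1, 1 member passed with the replicate block, the trended and robust prior or array weights, MUC13 each time (adjusted p = 0.0258, 0.0435 and 0.0292), and 0 to 1 with 1 array left out. For the difference between the lines, 2 passed with the block, the filter at the median level or the trended and robust prior (GALNT5 and GALNT12 each time), 3 with array weights, 0 at an adjusted p under 0.01 and 0 to 2 with 1 array left out. Between the control lines 8 passed above the median level, where fewer members were tested, and 14 to 15 with 1 array left out. No call changed direction. Shares of all genes called are given at most for the main fit, the block, centring and the fit without HCT 116 arrays numbered 1. For the other alternatives, a change in the number of members called is not set against that of all genes. Centring moved the median change of all genes by at most 0.10. The HCT 116 and DLD1 groups fitted alone give no test of the difference between the lines. Low signal limits the 14 members that lay below every array median, among them all gel-forming mucins.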
